A study of Mus musculus and Rattus norvegicus with 51 samples.

Results

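The epidermal growth factor (EGF) family was examined as 10 genes chosen by name: the ligands Areg, Ereg, Epgn, Hbegf, Tgfa, Btc and Egf, and the receptors Egfr, Erbb2 and Erbb3. All 10 were found by symbol in each of the 3 deposited count tables, which held 17327 genes for cultured cells, 24421 for fibrotic and resolving livers and 24982 for MO and CCl4 livers. The ligands are made as membrane-bound precursors that proteases such as ADAM17 cut free, after which they bind EGFR or ErbB receptors on the same or on neighbouring cells. Bound receptors pair up and switch on kinase cascades, the ERK cascade among them, and these induce immediate early genes together with feedback inhibitors. In the liver EGFR is abundant on hepatocytes and takes part in regeneration after injury, and stellate cells, which become scar-forming myofibroblasts, also respond to these ligands.

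By its title, the study concerned redox-sensitive forms of HMGB1, a nuclear protein that injured cells release, in liver fibrosis and its resolution. RNA was sequenced in 51 libraries in 16 groups. HSC-T6 cells, an immortalised rat line derived from hepatic stellate cells, received BSA or HMGB1 labelled [H], [O] or [SO3] for 6 h, with 3 libraries each. Whole livers of wild-type mice were taken after 4 weeks of CCl4, a hepatotoxin, together with BSA, [H] HMGB1 or [O] HMGB1, and other wild-type livers were taken in regression for 1 week with BSA, [SO3] HMGB1 or an HMGB1 antibody, again with 3 libraries in each of the 6 groups. A further set was taken at 4 weeks from mice given MO or CCl4: wild-type mice, Hmgb1ΔHepΔMye mice with WT HMGB1, and Hmgb1ΔHepΔMye mice with Δ[O] HMGB1, with 3 MO and 4 CCl4 libraries each. The labels call all samples male and do not spell out MO, the bracketed forms or Δ[O], and neither the mice's ages, nor the Cre drivers of the Hmgb1 deletion, nor the way HMGB1 was supplied could be read from them. Both knockout groups carry the same deletion and both carry a supplied HMGB1, so no knockout liver without one was analysed here.

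Library totals were 11.8 to 17.0 M gene counts in the cells, 8.36 to 16.3 M in the fibrotic and resolving livers and 22.6 to 39.3 M in the MO and CCl4 livers. Hmgb1, the targeted gene, stood at 74.9 ± 2.28 CPM (read counts scaled to a common library total of 1 M; SD, n = 3) in wild-type MO livers, 69.4 ± 5.42 (n = 3) in knockout MO livers with WT HMGB1 and 173 ± 42.2 (n = 3) with Δ[O] HMGB1. With CCl4 it stood at 74.8 ± 22.1, 58.7 ± 13.4 and 74.5 ± 14.8 CPM (n = 4 each). These counts cannot separate transcripts of the deleted gene from those of a supplied one, so they check neither label. In the cells 9 of 10 stellate markers had counts (Lrat, which quiescent stellate cells express, was at 0), and the hepatocyte list summed to at most 2.04 CPM. Markers of hepatocytes were abundant in every liver.

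4 of the ligand genes lie together on mouse chromosome 5 (GRCm38, RefSeq). Epgn spans 91027517 to 91035212, Ereg 91074617 to 91093649 and Areg 91139599 to 91148432 on the plus strand, and Btc spans 91357261 to 91402994 on the minus strand, a stretch of 375 kb in all. Tgfa lies on chromosome 6, Egf on chromosome 3, Egfr and Erbb2 on chromosome 11 and Erbb3 on chromosome 10. RefSeq promoter windows matched 7 of the 10 members. The 250 bases before the annotated start of 3 of the neighbours on chromosome 5 are shown because these neighbours differed in level in the livers, as given further on. They are printed 5′ to 3′ on the gene's strand, with matches to searched motifs in capitals, and Areg is at chr5:91139349-91139598 (plus), Epgn at chr5:91027267-91027516 (plus) and Btc at chr5:91402995-91403244 (minus).
Areg: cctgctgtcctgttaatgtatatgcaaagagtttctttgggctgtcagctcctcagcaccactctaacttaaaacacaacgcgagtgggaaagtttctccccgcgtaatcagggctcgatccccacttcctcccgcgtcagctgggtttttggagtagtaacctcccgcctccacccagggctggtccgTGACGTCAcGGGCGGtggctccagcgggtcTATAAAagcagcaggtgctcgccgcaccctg
Epgn: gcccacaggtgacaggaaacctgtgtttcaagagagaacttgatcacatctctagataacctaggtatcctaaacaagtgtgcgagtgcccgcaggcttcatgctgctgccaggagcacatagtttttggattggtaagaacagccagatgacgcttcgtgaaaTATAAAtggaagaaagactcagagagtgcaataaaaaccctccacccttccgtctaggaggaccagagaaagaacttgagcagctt
Btc: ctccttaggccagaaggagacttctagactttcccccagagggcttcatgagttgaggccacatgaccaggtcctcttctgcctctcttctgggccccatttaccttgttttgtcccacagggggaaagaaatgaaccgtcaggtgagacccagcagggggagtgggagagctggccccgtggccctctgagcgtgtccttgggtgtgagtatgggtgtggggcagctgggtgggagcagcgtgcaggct

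4 motifs were searched on both strands: the CRE TGACGTCA, the AP-1 site TGANTCA, the TATA box TATAAA and the GC box GGGCGG. The Areg window held a CRE that began 61 bases before the start, a GC box at 52 and a TATA box at 31. Of 32851 mouse promoter windows of that length, 1.55% held the CRE, 32.7% the GC box, 12.4% the TATA box and 6.75% the AP-1 site. Epgn had a TATA box that began 86 bases before the start, and Btc had none of the 4 motifs. Of the other matched windows, Tgfa held GC boxes that began 126 and 15 bases before the start, Egfr held 1 at 9, and those of Egf and Erbb2 held no match. The Tgfa window (86194972 to 86195221, plus strand) ran past the first base of the gene at 86195038, so its start lies inside the gene. These are matches of letters in the mouse genome, and the cultured cells are from rat. Whether the matches bear on the levels was not tested.

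In HSC-T6 cells 4 EGF family ligands rose with [SO3] HMGB1 while the receptor genes Egfr and Erbb2 fell. Among these ligands, Ereg passed the filter on low counts through the [O] and [SO3] libraries. Of the 10 members, 7 passed the filter on low counts; Epgn and Btc had at most 2 counts in any cell library, and Erbb3, a receptor with a weak kinase that signals through its partners, had 3 to 15. Levels are CPM scaled by trimmed means, and fold changes come with adjusted p-values from edgeR's quasi-likelihood test with Benjamini-Hochberg adjustment over all tested genes. A gene was called at an adjusted p under 0.05. Nothing in the labels tells whether the numbers mark separate cultures or animals; the p-values therefore describe the spread among these libraries alone, and part or all of that spread may be technical.

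Areg encodes amphiregulin, a low-affinity EGFR ligand induced by injury. It stood at 0.816, 0.426 and 0.513 CPM with BSA, 0.509, 0.743 and 0.744 with [H], 1.22, 1.02 and 1.03 with [O] and 6.24, 6.73 and 5.81 with [SO3] HMGB1. All [SO3] libraries were above every other library, and the [O] libraries were above those of BSA and [H]. The log2 fold change over BSA was 3.38 (SE 0.21, adjusted p = 8.04e-13) with [SO3] and 0.87 (SE 0.31, adjusted p = 0.0275) with [O]. The [O] call was lost with DESeq2 (adjusted p = 0.0674) and without BSA library 2 (0.15), BSA library 3 (0.0756) or [O] library 1 (0.0972).

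Ereg encodes epiregulin, which binds EGFR and ErbB4. Its levels were 0.544, 0.5678 and 0.684 CPM with BSA, 0.6996, 0.557 and 0.434 with [H], 5.44, 4.20 and 4.44 with [O] and 4.94, 4.96 and 4.24 with [SO3] HMGB1. The [O] and [SO3] libraries overlapped each other and stood apart from the BSA and [H] libraries. Ereg reached the level of the filter in 3 [O] and 3 [SO3] libraries but in only 1 BSA and 1 [H] library. It was thus tested only through the groups where it is high, so its calls against BSA are given as a description. The log2 fold change over BSA was 2.97 in both cases (SE 0.23, adjusted p = 4.83e-11 with [O]; SE 0.22, adjusted p = 3.01e-11 with [SO3]). Between [SO3] and [O] HMGB1 the log2 difference was 0.0037 (95% interval -0.26 to 0.27; adjusted p = 0.988).

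Tgfa encodes TGF-alpha, the ligand that hepatocytes also make during regeneration. It stood at 47.4, 50.5 and 47.3 CPM with BSA, 48.3, 52.9 and 52.0 with [H], 33.3, 34.4 and 33.4 with [O] and 114, 115 and 123 with [SO3] HMGB1. The [O] libraries were all under the BSA libraries and the [SO3] libraries all above them. Tgfa thus rose with [SO3] (log2 1.28, SE 0.05, adjusted p = 8.16e-17) and fell with [O] (log2 -0.52, SE 0.06, adjusted p = 3.02e-08). The log2 difference between [SO3] and [O] was 1.80 (SE 0.05, adjusted p = 7.54e-20).

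Hbegf encodes heparin-binding EGF-like growth factor. It stood at 15.0, 14.7 and 17.5 CPM with BSA, 14.4, 13.9 and 15.8 with [H], 17.0, 16.4 and 17.0 with [O] and 32.8, 31.0 and 34.6 with [SO3] HMGB1. The [SO3] libraries alone stood apart from those of the other 3 groups. The log2 fold change was 1.07 with [SO3] (SE 0.07, adjusted p = 8.66e-12) and 0.10 with [O] (adjusted p = 0.333). Egf, the family's founding ligand, lay between 1.61 and 3.16 CPM in all 12 libraries and passed no test in the cells (lowest adjusted p 0.144).

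Egfr, the receptor of all these ligands, stood at 64.4, 61.6 and 54.3 CPM with BSA, 61.9, 65.0 and 65.9 with [H], 71.7, 69.5 and 61.8 with [O] and 41.8, 42.9 and 51.1 with [SO3] HMGB1. Its [SO3] libraries were the lowest, and its [O] libraries overlapped those of BSA. It fell by 0.41 on the log2 scale with [SO3] (SE 0.08, adjusted p = 9.49e-05), and with [O] it differed by 0.17 (adjusted p = 0.0721), which passed without BSA library 1 (adjusted p = 0.0321) or [O] library 3 (adjusted p = 0.016). Erbb2, the partner receptor that binds no ligand itself, stood at 65.2, 66.6 and 59.7 CPM with BSA, 65.3, 68.2 and 67.8 with [H], 76.6, 76.4 and 72.7 with [O] and 56.4, 54.3 and 52.9 with [SO3]. The BSA libraries lay between the [O] libraries above and the [SO3] libraries below, with no overlap. Erbb2 rose with [O] (log2 0.23, SE 0.05, adjusted p = 0.00038) and fell by 0.23 on the log2 scale with [SO3] (SE 0.05, adjusted p = 0.000329).

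**Figure D1:**
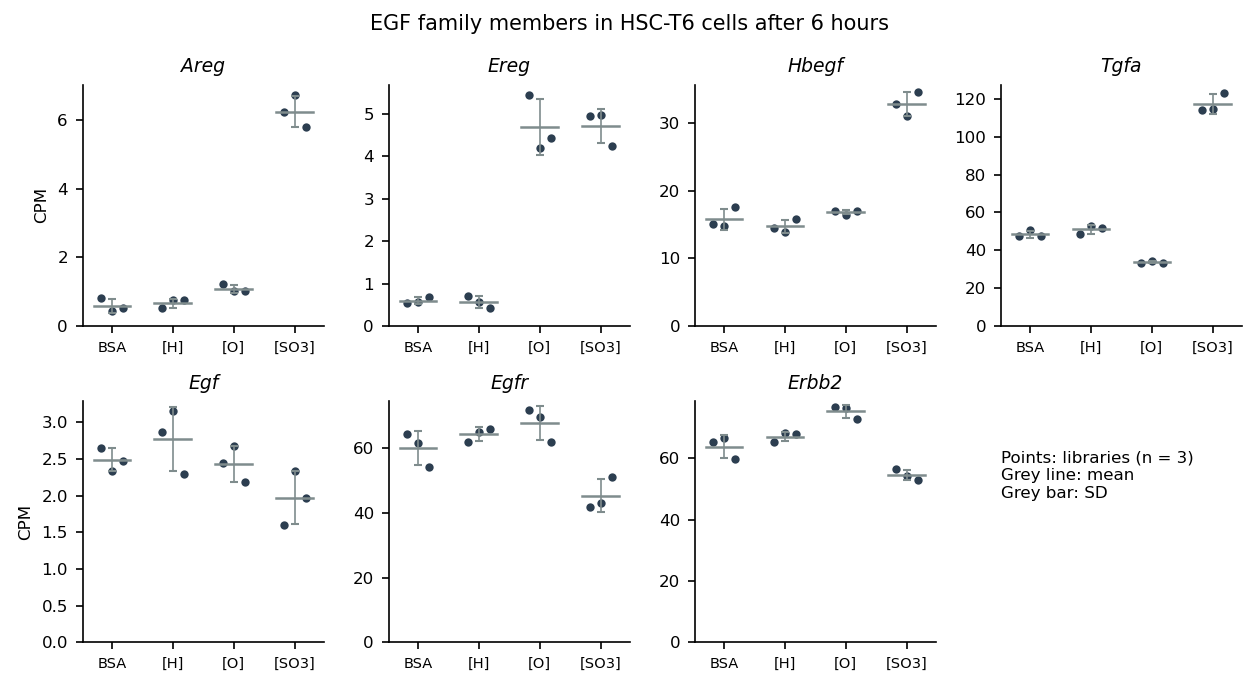
CPM (vertical axis, from 0) of the 7 tested EGF family genes in HSC-T6 cells by treatment, with 1 point per library, a line at the group mean and a bar of 1 SD (n = 3). Areg, Hbegf and Tgfa are highest with [SO3] HMGB1, Ereg is high with both [O] and [SO3], and Egfr and Erbb2 are lowest with [SO3].

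In counts of called members, [SO3] HMGB1 moved 6 of the 7 tested against BSA, 4 up and 2 down, where 63.3% of all 10140 tested genes were called (31.1% up and 32.2% down). [O] HMGB1 moved 4 of 7, 3 up and 1 down, against 43.9% of all genes (23.7% up, 20.2% down). Both upward counts include Ereg, which passed the filter through the [O] and [SO3] libraries and whose calls are given as a description. Between [SO3] and [O], 5 of 7 were called, 3 higher with [SO3] and 2 lower, against 59.2% of all genes (29.1% higher, 30% lower). [H] HMGB1 moved 0 of 7 by edgeR and 0 by DESeq2, against 0.799% of all genes (0.316% up, 0.483% down). At an unadjusted edgeR p under 0.05 there were 0 of 7 members and 1713 of all 10140 genes. With 7 members, these counts do not set the family apart from all genes. The median log2 change of the tested members was 1.07 with [SO3], 0.17 with [O] and 0.08 with [H], where the medians of all tested genes were -0.0232, -0.0061 and 0.0025. The comparisons with BSA share their 3 BSA libraries.

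Genes of the wider pathway were also called in the cells. Of 52 listed genes (other ligands and Erbb4, shedding proteins, signal relay, negative regulators and ERK target genes), 48 were in the cell table and 43 were tested. [O] HMGB1 raised 24 and lowered 6 (median log2 change 0.17), where 23.7% of all genes rose and 20.2% fell. [SO3] HMGB1 raised 26 and lowered 9 (median 0.24), where 31.1% of all genes rose and 32.2% fell. With [H], Egr2, an immediate early transcription factor, was the 1 gene called (log2 -0.77, adjusted p = 0.045). Among the shedding genes 3 of 4 rose with [O]. Adam17, the main sheddase of these ligands, went from a mean of 93.3 to 231 CPM (log2 1.31, adjusted p = 2.57e-18), and Rhbdf2, which carries ADAM17 to the cell surface, from 21.5 to 129 CPM (log2 2.57, adjusted p = 2.43e-21). With [SO3] their means were 121 and 83.2 CPM, and Adam17 (log2 difference -0.94, adjusted p = 1.05e-15), Rhbdf2 (-0.63, adjusted p = 9.59e-11) and Rhbdf1 (-0.75) were lower than with [O]. Nrg1, the neuregulin that binds ErbB3 and ErbB4, rose from 2.25 CPM to 13.8 with [O] (log2 2.63, adjusted p = 1.57e-14) and 9.25 with [SO3] (log2 2.05, adjusted p = 6.04e-12).

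Of the 14 tested targets of EGFR and ERK signalling, 10 rose and 2 fell with [O], and 11 rose and 3 fell with [SO3], beside 23.7% up and 20.2% down with [O] and 31.1% up and 32.2% down with [SO3] over all genes. The largest rises with [SO3] were in Fosl1, an AP-1 subunit (14.7 to 155 CPM, log2 3.39), Egr1, an immediate early factor (10.07 to 72.4 CPM, log2 2.82), and Ier3 (41.6 to 281 CPM, log2 2.75). Junb, another AP-1 subunit, led them with [O] (57.5 to 245 CPM, log2 2.09). Etv5 and Hmga2 fell with [SO3] by 0.48 and 0.72. Of 11 negative regulators, 4 rose and 3 fell with [O], and 7 rose and 2 fell with [SO3], to be read against the same shares of all genes. Errfi1, which binds and inhibits EGFR, rose with both (log2 0.76 and 1.04), while Spry1, a Sprouty inhibitor of receptor kinase signalling, fell with both (log2 -1.16 and -0.94). Dusp4, an ERK phosphatase, and Egr2 fell with [O] (log2 -1.05 and -1.10). Of the genes that differed between [SO3] and [O], Egr1 (2.36), Fosl1 (2.20) and the ERK phosphatase Dusp5 (1.66) had the largest positive log2 differences and the cytokine-signalling inhibitor Socs3 (-1.42) the largest negative one. A list of 5 genes of dividing cells summed to 430.5 to 461 CPM with [SO3] and 827 to 901 with BSA; its part in these differences was not tested.

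Over the 12 cell libraries the gene nearest to Areg by root mean square difference of centred log2 CPM was Fosl1 (0.264), followed by Srxn1 (0.322) and Enc1 (0.346). Ereg was nearest to Ptgs2 (0.205), Abcb1b (0.302) and Plk2 (0.344). Hbegf was nearest to Amd1 (0.0802), Gnl3 (0.0870) and a gene without a name in the table that ranked between them.

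In fibrotic livers most ligand genes were highest in the liver numbered 2 of each treatment group, a share that was not counted over all genes. No member passed the test between treatments. Areg stood at 1.66, 183 and 3.05 CPM in BSA livers 1, 2 and 3, 0.6002, 6.06 and 1.34 with [H] HMGB1 and 0.213, 0.868 and 0.324 with [O] HMGB1. The liver numbered 2 was the highest in each group, and the groups overlapped except BSA against [O]. Within each number Areg was highest with BSA, then [H], then [O]: BSA exceeded [O] by 7.78, 211 and 9.40 times in numbers 1 to 3, and [H] exceeded [O] by 2.81, 6.98 and 4.12 times. The fitted log2 difference of [O] from BSA was -6.99 (SE 1.55) with an unadjusted edgeR p of 0.000384 and an adjusted p of 0.889. With the number as a block it was -5.62 (adjusted p = 0.333), and without the 3 livers numbered 2 it was -3.05 (adjusted p = 1).

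In 4 further ligand genes the 3 fibrotic livers numbered 2 lay above the other 6 without overlap. Ereg stood at 3.16 to 8.66 CPM in them and 0.429 to 1.67 in the others, Hbegf at 5.90 to 50.9 against 1.07 to 3.18, Tgfa at 63.3 to 75.7 against 33.8 to 61.6, and Btc, which encodes betacellulin, at 13.0 to 53.2 against 3.98 to 5.85. Erbb3 lay below, at 27.1 to 47.9 CPM against 74.5 to 171. The share of all genes that separated in this way was not counted, so this separation does not set the members apart from other genes. BSA liver 2 held the highest level of Areg, Ereg, Hbegf and Btc among the 18 libraries of this table. The number is that of the labels, which do not say what it stands for. Same-numbered fibrotic livers deviated together across all genes, with a correlation of 0.187 to 0.708 in 9 of 9 pairs. Neutrophil markers (5 of 6 in the table) summed to 197, 42.0 and 191 CPM in the livers numbered 2 with BSA, [H] and [O], the highest in each group, and markers of dividing cells to 8.05, 14.8 and 28.4 CPM, the lowest in each group. Their part in the ligand levels was not tested. In whole liver fewer cells of a type and less RNA per cell cannot be told apart.

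**Figure D2:**
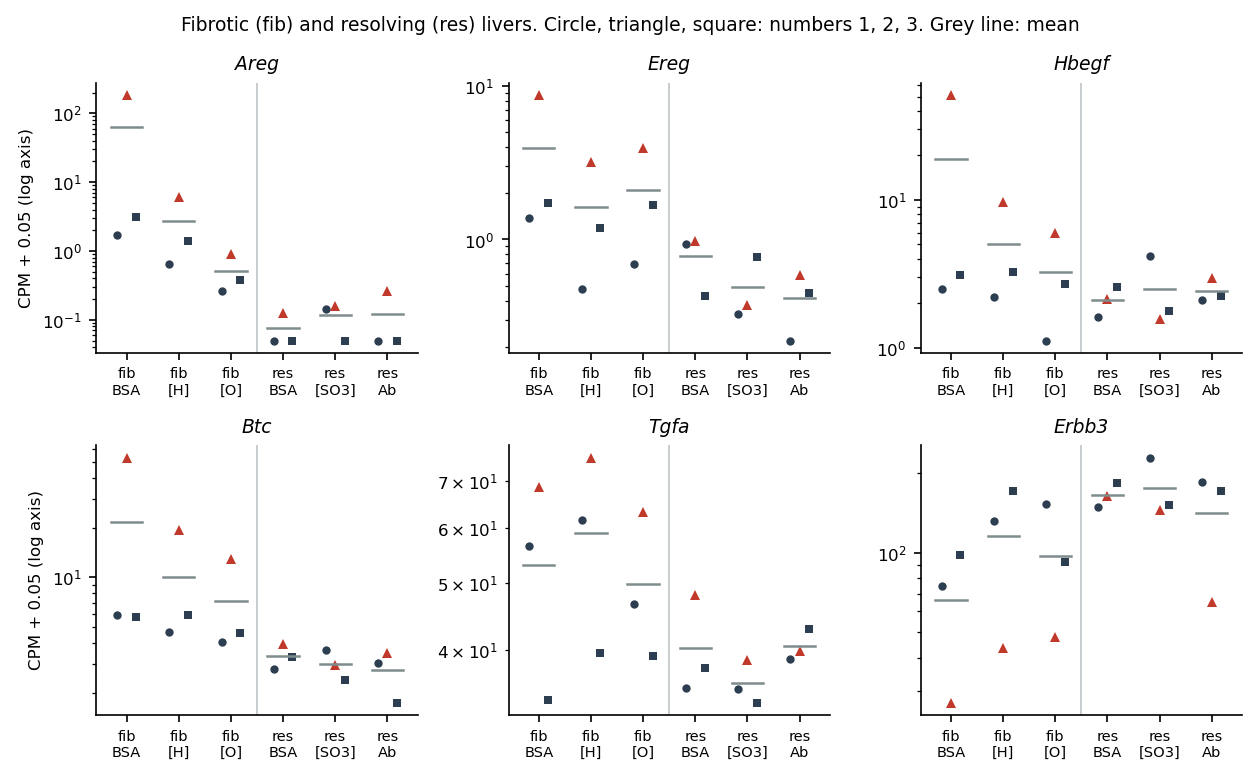
CPM plus 0.05 on a log axis of 5 ligand genes and Erbb3 in fibrotic (fib) and resolving (res) livers by treatment, with circles, red triangles and squares for the libraries numbered 1, 2 and 3 and a line at the group mean. The red triangles are the highest of their fibrotic group in Areg, Ereg, Hbegf, Btc and Tgfa and the lowest in Erbb3.

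Of the receptor genes, Egfr stood at 293, 625 and 320 CPM in the fibrotic BSA livers, 527, 397 and 782 with [H] HMGB1 and 540, 333 and 618 with [O] HMGB1, so that the groups overlapped. Erbb2 stood at 2.86, 4.13 and 4.06 CPM with BSA, 1.80, 2.504 and 1.91 with [H] and 2.77, 4.11 and 3.30 with [O]. The [H] livers were below both other groups, with log2 differences of -0.82 from BSA (adjusted p = 0.418) and, for [O] over [H], 0.71 (adjusted p = 0.411). No member was called in the fibrotic livers in any of the 3 comparisons by edgeR or by DESeq2 (0 of 9 each). Of the 13487 tested genes 0% were called in each. In [H] against BSA, [O] against BSA and [O] against [H], 2, 2 and 1 members had an unadjusted edgeR p under 0.05. So had 1447, 726 and 1412 of the 13487 genes. The replicate block changed none of the counts of called members. In resolving livers neither [SO3] HMGB1 nor the antibody moved any of 9 members against BSA by edgeR or DESeq2, again with 0% of all genes called. An unadjusted edgeR p under 0.05 was reached by 0 members, and by 812 genes with [SO3] and 279 with the antibody.

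Resolving BSA livers held less Areg and Btc RNA than fibrotic BSA livers. Areg was at 0, 0.0776 and 0 CPM in resolving BSA livers, a single count in all, against 1885 counts in the fibrotic group. The ratio was 1725 (95% counting interval 309 to 68158), or 82.4 (14.3 to 3304) without fibrotic liver 2, in which 67 counts remained; the interval covers counting error only. Btc stood at 2.74, 3.88 and 3.26 CPM in resolving and 5.85, 53.2 and 5.73 CPM in fibrotic livers, with no overlap. The adjusted edgeR p was 0.0479 for Btc (log2 -2.70, SE 0.80) and 0.0163 for Areg. Areg entered the test through fibrotic livers alone, where it is high, so its call is given as a description. With Areg included, 2 of 9 members were called, both lower, where 9.02% of all genes were called, 6.61% lower and 2.4% higher. The median log2 difference of the members was -0.76 against -0.0386 over all genes. Btc was not called without fibrotic liver 2 (log2 -0.81, adjusted p = 0.448), and neither gene was called without any 1 of the resolving livers (adjusted p 0.0758 to 0.0937 for Areg and 0.13 to 0.143 for Btc) or in a fit of these groups only (0.109 and 0.162). Stellate markers summed to 494 to 1651 CPM in fibrotic and 247 to 365 CPM in resolving BSA livers, and cholangiocyte markers to 204 to 667 and 113 to 147. The cholangiocyte sum of 667 CPM included 523 CPM of Sox9 alone, whose median over the fibrotic and resolving livers was 19.7 CPM. Neutrophil markers summed to 55.7 to 197 and 35.1 to 47.7, and mesothelium markers to 26.4 to 109.7 and 5.198 to 10.3. Hepatocyte markers summed to 25373 to 29332 and 29489.7 to 34205. The part of these markers in the differences was not tested.

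Ereg and Hbegf in resolving BSA livers, at 0.889, 0.931 and 0.376 CPM and 1.57, 2.09 and 2.51 CPM, differed from fibrotic BSA livers by -2.33 (adjusted p = 0.0834) and -3.19 (adjusted p = 0.0545) on the log2 scale. Both passed with DESeq2 (adjusted p = 0.0369 and 0.0042) and without fibrotic liver 1 (edgeR adjusted p = 0.0405 and 0.02), and Hbegf also without fibrotic liver 3 (0.0289). Erbb3 stood at 149, 164 and 183 CPM in resolving against 74.5, 27.1 and 97.7 CPM in fibrotic livers, with no overlap and a log2 difference of 1.31 (adjusted p = 0.117). Egfr stood at 792, 668 and 705 against 293, 625 and 320 CPM, also with no overlap (log2 0.81, adjusted p = 0.134), and passed without the livers numbered 2 (log2 1.21, adjusted p = 0.0229). Of 49 tested pathway genes 15 fell and 0 rose (median log2 difference -1.20 against -0.0386 over all genes, of which 6.61% fell and 2.4% rose), among them 8 of 15 ERK targets and 5 of 14 negative regulators. Fosl1 had 1269 counts in fibrotic and 1 in resolving BSA livers (ratio 1161, 95% counting interval 208 to 45897), but 114 of its CPM lay in fibrotic liver 2 against 6.91 and 2.47 in livers 1 and 3. Dusp5 fell from 54.7 to 0.572 CPM (adjusted p = 0.0216), the AP-1 subunit Fos from 51.3 to 1.21 CPM (adjusted p = 0.0225) and Nrg1 from 33.7 to 1.37 CPM (adjusted p = 0.0165). The differences of Adam17 (-0.37), Rhbdf2 (-1.69) and Errfi1 (0.19) did not pass (adjusted p = 0.181, 0.0634 and 0.592).

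CCl4 changed 7 of 9 tested members in wild-type livers, with 5 ligands (among them Areg, which passed the filter through these CCl4 livers) higher and the receptors Egfr and Erbb3 lower than with MO. Of all 14129 tested genes 46.3% were called, 22.8% higher and 23.5% lower. Btc stood at 0.905, 0.983 and 1.06 CPM with MO and 5.53, 10.2, 5.19 and 7.80 with CCl4, with a wide gap between the groups (log2 2.87, SE 0.29, adjusted p = 4.19e-07). Tgfa stood at 24.7, 24.0 and 19.95 CPM with MO and 39.6, 43.4, 35.3 and 31.3 with CCl4, again without overlap (log2 0.71, SE 0.15, adjusted p = 0.000945). Hbegf stood at 0.658, 0.819 and 0.647 CPM with MO and 1.14, 1.44, 1.54 and 1.49 with CCl4, all above the MO livers (log2 0.99, SE 0.35, adjusted p = 0.0251). The Hbegf call was lost without MO liver 1 (0.0811) or MO liver 3 (0.0802).

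Areg and Ereg were scarce in these livers. Areg reached the level of the filter (0.33 CPM in at least 3 libraries) in 3 wild-type CCl4 livers and in 1 CCl4 liver with Δ[O] HMGB1, so it was tested only through the group where it is high, and its calls in these livers are given as a description. Areg stood at 0.0411, 0.109 and 0.0462 CPM with MO and 0.352, 0.720, 0.145 and 1.57 with CCl4, with no overlap and the highest value in CCl4 liver 4. Its log2 fold change was 3.35 (SE 0.90, adjusted p = 0.00481), with 4 counts in the MO and 86 in the CCl4 group (ratio 10.3, 95% counting interval 3.88 to 38.6). Ereg stood at 0.0411, 0 and 0.0924 CPM with MO and 0.922, 2.02, 0.725 and 0.336 with CCl4. That was 3 counts against 141 (ratio 22.5, 95% counting interval 7.54 to 110.4; edgeR adjusted p = 8.98e-05). Epgn, the fourth gene of the chromosome 5 group, had at most 2 counts in any liver library, and Btc, the gene at the other end, held the highest CPM per kb of exon of these 4 in both wild-type groups.

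Egfr stood at 725, 1077 and 729 CPM with MO and 282, 337, 368 and 255 with CCl4 in wild-type livers. All CCl4 livers were far below the MO livers (log2 -1.44, SE 0.26, adjusted p = 0.000186). Erbb3 stood at 212, 192 and 166 CPM with MO and 99.2, 80.0, 96.6 and 131 with CCl4, also without overlap (log2 -0.90, SE 0.22, adjusted p = 0.00228). Erbb2 lay at 0.782 to 1.42 CPM with MO and 1.19 to 1.77 with CCl4 (log2 0.49, adjusted p = 0.109), and passed without MO liver 2 (0.0451) or CCl4 liver 4 (0.0464). Egf differed by -0.48 (adjusted p = 0.236). The median log2 change of the 9 members was 0.71 against -0.0044 over all genes. Hepatocyte markers summed to 151558 to 176483 CPM with MO and 84209.8 to 123920 with CCl4, stellate markers to 61.2 to 132 and 383 to 859, and cholangiocyte markers to 79.7 to 107 and 137 to 257; their part in these changes was not tested.

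Per kb of exon, wild-type MO livers held 74.5 ± 17.9 CPM per kb of Egfr (SD, n = 3), 31.6 ± 3.85 of Erbb3 and 3.53 ± 0.397 of Tgfa. Btc (0.218 ± 0.0174) and Erbb2 (0.209 ± 0.0615) followed and did not differ beyond their spread, and Hbegf stood at 0.146 ± 0.0200 CPM per kb, in livers that partly overlapped those of Erbb2 (0.134 to 0.170 against 0.150 to 0.273). Egf (0.0596 ± 0.00300) and Areg (0.0539 ± 0.0312) overlapped, with Epgn (0.0152 ± 0.0263) and Ereg (0.0108 ± 0.0112) last. In wild-type CCl4 livers the order was Egfr (27.4 ± 4.50 CPM per kb, n = 4), Erbb3 (16.9 ± 3.57), Tgfa (5.76 ± 0.807) and Btc (1.59 ± 0.516). Areg (0.573 ± 0.517), Hbegf (0.290 ± 0.0372), Erbb2 (0.290 ± 0.0585) and Ereg (0.243 ± 0.175) then overlapped, Areg also with Btc, ahead of Egf (0.0427 ± 0.00957) and Epgn at 0. In fibrotic BSA livers of the other table Areg averaged 51.5 ± 85.8 CPM per kb (n = 3), the highest mean of all members there, through liver 2 alone.

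**Figure D3:**
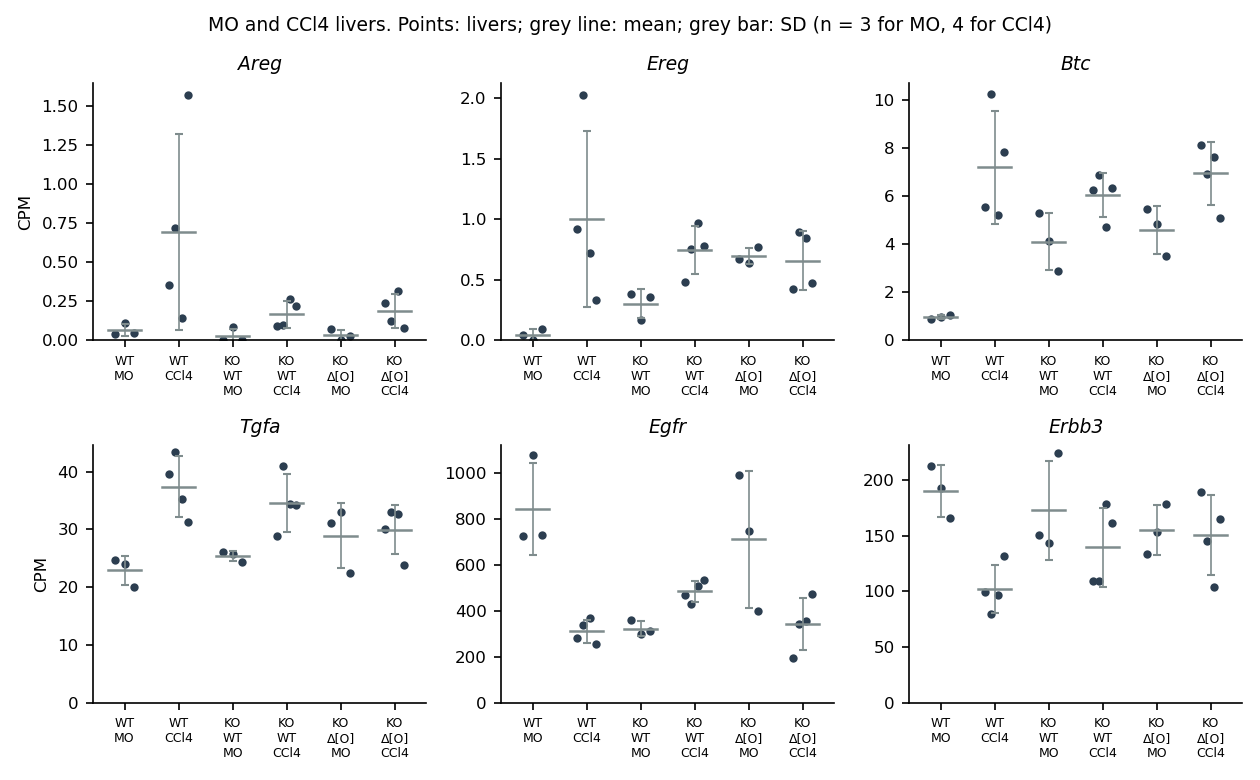
CPM (vertical axis, from 0) of 6 EGF family genes in MO and CCl4 livers of wild-type mice (WT) and of Hmgb1ΔHepΔMye mice (KO) with WT or Δ[O] HMGB1, with 1 point per library, a line at the mean and a bar of 1 SD (n = 3 for MO and 4 for CCl4). Btc is lowest in wild-type MO livers, at 0.905 to 1.06 CPM, and Egfr and Erbb3 are lower with CCl4 than with MO in the wild type.

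In knockout livers with WT HMGB1, CCl4 changed 2 of 9 members, both upward, where 47.3% of all genes were called and 23.3% were higher. An unadjusted p under 0.05 was reached by 5 members and by 7624 of all 14129 tested genes. Ereg stood at 0.385, 0.167 and 0.359 CPM with MO and 0.486, 0.753, 0.969 and 0.781 in CCl4 livers 1, 3, 4 and 5, with no overlap (log2 1.26, SE 0.51, adjusted p = 0.0462). Tgfa stood at 26.0, 25.8 and 24.3 CPM with MO and 28.8, 41.0, 34.4 and 34.2 with CCl4, also apart (log2 0.45, SE 0.15, adjusted p = 0.0209). Ereg was not called without any 1 of the MO livers 1 to 3 or the CCl4 livers 3, 4 and 5 (adjusted p 0.0678 to 0.17), nor Tgfa without MO liver 2, MO liver 3 or CCl4 liver 3 (0.052 to 0.0623). Egfr stood at 358, 298 and 313 CPM with MO and 471, 428, 509.6 and 533 with CCl4, so that here the CCl4 livers were above (log2 0.59, adjusted p = 0.077; 0.045 with DESeq2 and 0.00552 in a fit of these groups only). Btc stood at 5.28, 4.14 and 2.90 CPM with MO and 6.23, 6.85, 4.73 and 6.31 with CCl4, with overlap (log2 0.56, adjusted p = 0.0664; 0.031 without MO liver 1 and 0.0377 without CCl4 liver 4). Areg had 2 counts with MO and 23 with CCl4 (ratio 7.29, 95% counting interval 1.80 to 63.8; adjusted p = 0.0667, or 0.0318 without MO liver 2). From MO to CCl4 the stellate markers summed to 114 to 152 and 1511 to 2190 CPM, macrophage markers to 362 to 578 and 1303 to 1422, dividing-cell markers to 18.8 to 20.6 and 207 to 334, and hepatocyte markers to 102138 to 152929 and 81566 to 91374; their part was not tested.

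In knockout livers with Δ[O] HMGB1 CCl4 changed 1 of 9 members, where 24.2% of all genes were called and 11.4% were lower. An unadjusted p under 0.05 was reached by 4 members and by 5170 of all 14129 tested genes. Egfr stood at 991, 749 and 398 CPM with MO and 196, 341, 356 and 476 with CCl4, and MO liver 3 lay among the CCl4 livers (log2 -1.06, SE 0.26, adjusted p = 0.00618). The call was lost without MO liver 1 (log2 -0.74, adjusted p = 0.0649) and in a fit of these groups only (0.0735). Btc stood at 5.46, 4.82 and 3.49 CPM with MO and 8.10, 6.92, 7.63 and 5.08 with CCl4, with overlap (log2 0.60, adjusted p = 0.0804; 0.0344 without CCl4 liver 5, and 0.0497 with DESeq2). Hbegf stood at 0.779, 0.482 and 2.04 CPM with MO and 1.36, 1.69, 2.06 and 1.73 with CCl4 (log2 0.61, adjusted p = 0.17), and was called without MO liver 3 (log2 1.43, adjusted p = 0.00116). Areg had 3 counts with MO and 27 with CCl4 (ratio 5.63, 95% counting interval 1.73 to 29.0; adjusted p = 0.111). The median log2 changes of the members were 0.47 with WT and 0.05 with Δ[O] HMGB1, against -0.0303 and -0.0353 over all genes.

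Δ[O] and WT HMGB1 were compared directly in the knockout livers. With MO 0 of 9 members differed by edgeR (0% of all genes called). An unadjusted p under 0.05 was reached by 2 members and by 1549 of all 14129 tested genes. DESeq2 called 1 member, Egfr (log2 1.13, adjusted p = 0.046). In edgeR Egfr differed by 1.14 with an adjusted p of 0.339, or 0.0486 without Δ[O] MO liver 3. With CCl4 0 of 9 differed by edgeR or DESeq2 (2.31% of all genes called, 0.113% higher and 2.19% lower). Here 0 members and 2130 genes had an unadjusted p under 0.05. The difference in CCl4 response was called for 0 of 9 members (0% of all genes). An unadjusted p under 0.05 was reached by 1 member and by 2098 genes. For Egfr the difference was -1.64 on the log2 scale (SE 0.38, edgeR adjusted p = 0.173). It passed with DESeq2 (adjusted p = 0.0139) and without WT-HMGB1 MO liver 3 (edgeR adjusted p = 0.0276). None of the 49 pathway genes was called in these 3 comparisons.

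The knockout livers with WT HMGB1 already differed from wild-type livers with MO, in 4 of 9 members, 3 higher and 1 lower, where 24.2% of all genes were called (12.7% higher, 11.5% lower). Genotype and supplied HMGB1 cannot be told apart here. Btc, at 2.90 to 5.28 against 0.905 to 1.06 CPM, was higher (log2 2.05, SE 0.30, adjusted p = 6.89e-05). Egfr, at 298 to 358 against 725 to 1077 CPM, was lower (log2 -1.38, SE 0.29, adjusted p = 0.00156). Hbegf, at 1.27, 1.30 and 1.79 against 0.647 to 0.819 CPM, was higher by 1.05 (SE 0.37, adjusted p = 0.0418), and Ereg had 28 counts against 3 (ratio 6.75, 95% counting interval 2.08 to 34.7; adjusted p = 0.0317). None of these groups overlapped. Hbegf was not called without any 1 of the 6 livers (adjusted p 0.0558 to 0.133), nor Ereg without wild-type liver 1 or 2 or knockout liver 1 or 3 (0.074 to 0.108). Neutrophil markers summed to 53.3 to 74.6 CPM in these knockout and 10.6 to 14.5 CPM in wild-type MO livers, and macrophage markers to 362 to 578 and 722 to 751. The macrophage list includes Lyz2, which alone ran from 1.76 to 218 CPM over all MO and CCl4 livers (median 5.69), and its share in these sums was not tested. Dividing-cell markers summed to 18.8 to 20.6 and 9.997 to 12.3, and hepatocyte markers to 102138 to 152929 and 151558 to 176483. The part of these markers in the differences was not tested.

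With CCl4 1 of 9 members, Areg, differed between these genotypes, where 28.8% of all genes were called and 13% were lower. Areg passed the filter through the wild-type CCl4 livers, where it is high, so this call too is given as a description. Areg stood at 0.0912, 0.0971, 0.264 and 0.219 CPM in knockout livers 1, 3, 4 and 5 with WT HMGB1, against 0.145 to 1.57 in wild-type livers, with overlap (log2 -2.01, SE 0.62, adjusted p = 0.0197). The call was lost without wild-type liver 4 (log2 -1.31, adjusted p = 0.106) and without knockout liver 1 (0.0546) or 3 (0.0561). Egfr differed by 0.64 (adjusted p = 0.0543; 0.0334 with DESeq2 and 0.011 in a fit of these groups only). Macrophage markers, again with Lyz2 in the list, summed to 1303 to 1422 CPM in the knockout and 577 to 899 CPM in the wild-type livers. Stellate markers summed to 1511 to 2190 and 383 to 859 CPM. The part of these markers was not tested.

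The response to CCl4 itself differed between knockout livers with WT HMGB1 and wild-type livers in 3 of 9 members, where 13.5% of all genes were called (6.85% with a more positive response, 6.64% with a more negative one). The Egfr response differed by 2.03 on the log2 scale (SE 0.38, adjusted p = 0.00164), and the Btc response by -2.30 (SE 0.38, adjusted p = 0.000658). In both genes the MO levels differed between the genotypes, as given above. The Ereg response differed by -3.07 (SE 0.96, adjusted p = 0.0386) and rests on 3 counts in the wild-type MO group. It was not called with the replicate block (0.0759), in a fit of these groups only (0.0631) or without any 1 of 7 libraries (wild-type MO 1 and 2, wild-type CCl4 2, knockout MO 1 and 3, knockout CCl4 1 and 5; up to 0.111).

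**Figure D4:**
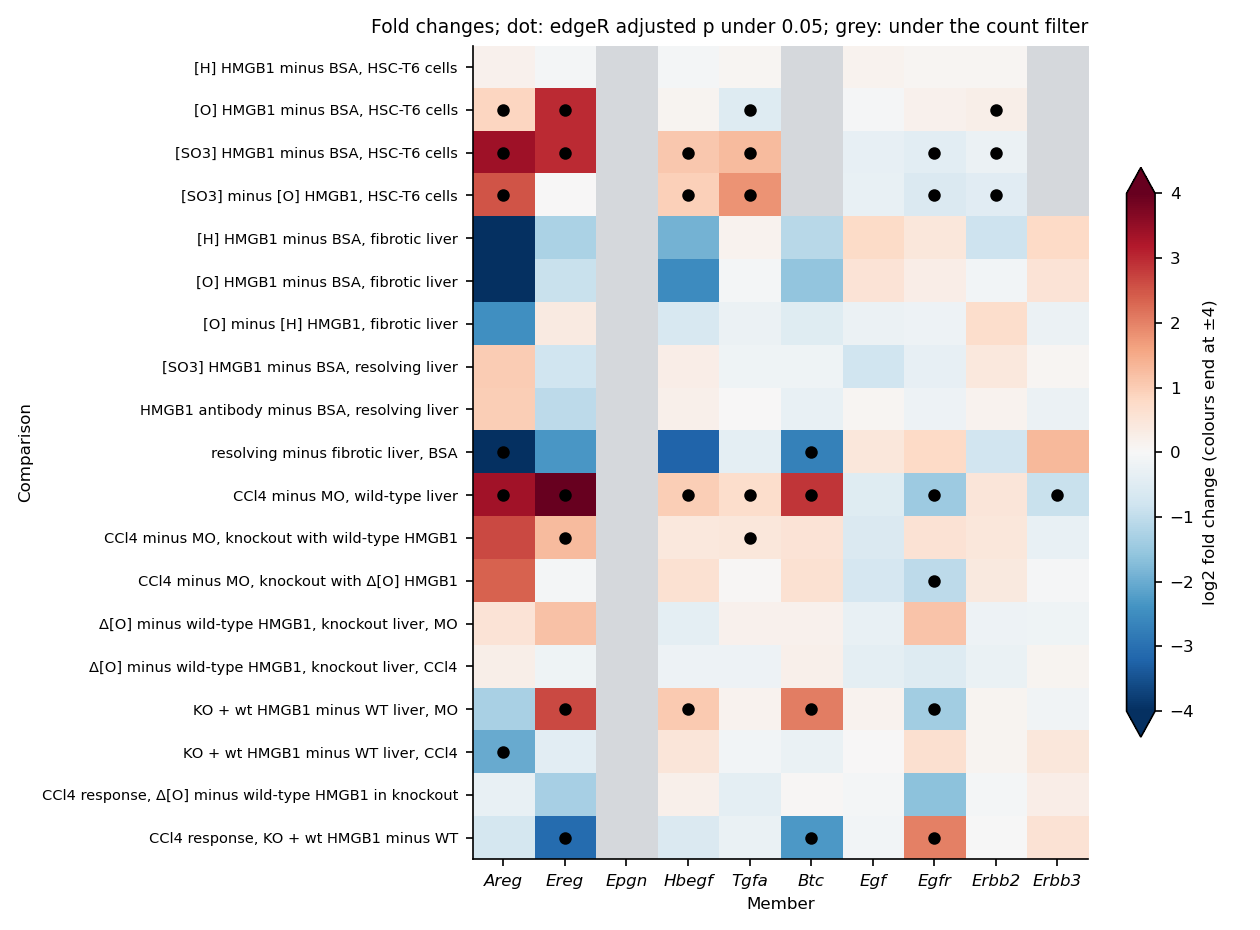
Heat map of the fitted log2 fold change (colour, red higher in the first group and blue lower, colours ending at 4) of each of the 10 genes (columns) in each of the 19 comparisons (lines), with a dot where the edgeR adjusted p was under 0.05 and grey where the gene was under the count filter. Dots are frequent for [O] and [SO3] HMGB1 in cells and for CCl4 in wild-type livers and absent between treatments of fibrotic or resolving livers; fitted values of genes with 3 or fewer counts in a group are no measure of the fold.

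Genes of the wider pathway were also called with CCl4. Of 49 tested genes 22 rose and 7 fell in wild-type livers (median log2 change 0.42, against -0.0044 over all genes), where 22.8% of all genes rose and 23.5% fell. In knockout livers with WT HMGB1, 24 rose and 6 fell (median 0.40 against -0.0303), beside 23.3% and 24% of all genes, and with Δ[O] HMGB1, 10 rose and 2 fell (0.24 against -0.0353), beside 12.9% and 11.4%. Nrg1 rose in all 3, from 0.0840 to 12.9 CPM in wild-type livers (log2 7.06, adjusted p = 6.47e-09), 1.18 to 11.4 CPM with WT HMGB1 (3.28, adjusted p = 9.58e-07) and 0.839 to 9.05 CPM with Δ[O] HMGB1 (3.43, adjusted p = 1.97e-06). The wild-type MO level of Nrg1 lay near 0.0467 CPM, the level of 3 counts over that group, so log2 differences that involve it are uncertain. Fosl1 had 0 counts in wild-type MO livers and 336 with CCl4, at least 53.6-fold higher against a floor of 3 counts over the group. Its ratio was 12.9 (95% counting interval 4.21 to 64.3) with WT HMGB1, where MO livers had 3 counts, and 14.1 (3.68 to 119.9) with Δ[O] HMGB1, where they had 2. Hmga2, an architectural chromatin protein, was at least 18.03-fold higher with CCl4 in wild-type livers (113 counts against 0).

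Adam17 rose in wild-type livers (22.6 to 30.3 CPM, log2 0.42, adjusted p = 0.012) and with WT HMGB1 (25.5 to 38.6 CPM, 0.60, adjusted p = 0.00094). Rhbdf2 rose in both knockout groups (log2 0.44 and 0.39) and changed by -0.03 in wild-type livers (adjusted p = 0.865). Errfi1 fell in wild-type livers from 1919 to 1208 CPM (log2 -0.67, adjusted p = 0.0183), as did Erbb4 (-1.22) and Phlda1 (-1.80), and its changes of 0.15 and -0.19 in the knockout groups did not pass. The transcription factor gene Etv4 rose with WT HMGB1 (3.94), on 4 counts with MO and 105 with CCl4 (ratio 16.6, 95% counting interval 6.31 to 62.2). Myc, another transcription factor gene, rose with Δ[O] HMGB1 (2.33). With Δ[O] HMGB1 the 2 genes that fell were the ERK phosphatase gene Dusp6 (-0.56) and Sos1 (-0.47), which links receptors to Ras. The immediate early genes Fos (-2.86), Ier2 (-1.23) and Junb (-1.19) fell with CCl4 in livers with WT HMGB1, in whose MO group Fos (4.11), Egr1 (3.68) and Nrg1 (3.60) were higher than in wild-type MO livers and Nrg4 (-2.04), Erbb4 (-1.98) and Myc (-1.59) lower (11 and 5 of 49 in all, beside 12.7% and 11.5% of all genes). With CCl4, 5 of the 49 pathway genes were higher and 7 lower in these knockout than in wild-type livers, beside 15.8% of all genes higher and 13% lower. Among them were the adaptor Gab2 (11.4 against 6.53 CPM), the sheddase Adam10 (69.0 against 50.3 CPM) and Rhbdf2 (23.3 against 17.99 CPM) on one side and Dusp4 (2.46 against 7.79 CPM), Ier3 (1.98 against 5.10 CPM) and Fosl1 (0.442 against 2.52 CPM) on the other. The CCl4 response of the knockout with WT HMGB1 was more positive than that of the wild type in 3 pathway genes, Nrg4 (log2 difference 1.32), Gab1 (0.69) and the adaptor Grb2 (0.35), and more negative in 8, among them Fos (-4.58), Nrg1 (-3.78) and the cyclin gene Ccnd1 (-2.98), where 6.85% and 6.64% of all genes were called.

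Over the 21 MO and CCl4 libraries Egfr was nearest in pattern to Ppp1r10 (root mean square difference 0.392), Lifr (0.394) and Zfp445 (0.398), beside a root mean square deviation of Egfr itself of 0.645. Erbb3 was nearest to Nipal3 (0.192), Plg (0.200) and Armcx5 (0.214), beside a deviation of its own of 0.404.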

How the data were processed

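RNA-seq libraries were made from cell RNA (miRNeasy kit) and liver RNA (RNAspin kit) with a stranded mRNA kit, per the labels. The authors deposited whole-number read counts per gene in 3 tables, and all 51 columns were matched to samples by name. The submitters' processing notes name mm10, for the rat cells too; what aligner, counter, annotation and strand option were used is not given in the sources used here, so overlapping and antisense genes are uncertain. Reads without a gene (32% to 35.2% of the gene counts in cells, 5.5% to 8.51% in the MO and CCl4 livers) were left out.

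Each table was fitted on its own with edgeR 4.0.16 (R 4.3.3): filterByExpr (minimum count 10, minimum total 15), TMM factors and a robust quasi-likelihood model over all groups, with Benjamini-Hochberg adjustment over the 10140, 13487 and 14129 tested genes. CPM values are counts scaled to a TMM-adjusted library total of 1 M, and log2 CPM had a prior count of 2. Lower bounds used a floor of 3 counts over a group, and counting intervals are 95% exact intervals that cover counting error only. DESeq2 1.42.0, size factors (RLE), no filter, a fit of the compared groups only, a replicate block and leaving out each library were alternatives. Fits were tested on simulated data. No libraries of a group were identical (lowest chi-square per degree of freedom 1.48). Same-numbered samples pair where every such correlation exceeded 0.1: the fibrotic groups (0.187 to 0.708), both knockout groups within MO (0.289 to 0.454) and within CCl4 (0.108 to 0.261), and wild-type with each knockout group within CCl4 (0.116 to 0.313 and 0.105 to 0.182).

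The members, the pathway list and the marker lists were chosen with earlier results of these data known. All 10 members are described; of the pathway list, up to 3 called genes with the largest change in each direction of a comparison are named, with Errfi1, Adam17, Rhbdf2 and Nrg1, and nearest patterns are given for Areg, Ereg, Hbegf, Egfr and Erbb3. Positions and promoters are from RefSeq GRCm38.p6, and exon lengths from GENCODE.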

Additional observations from a re-analysis of the deposited data

Results flagged for a closer look

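Of 29 sets of 4 libraries of 1 gene, 3 held a library set apart from the other 3 by most of the range. For normally distributed values chance gives about 1 in 20. Egf stood at 0.174 CPM in CCl4 liver 2 of the knockout with Δ[O] HMGB1, the lowest of its group, whose other livers were at 0.425 to 0.473. Epgn stood at 0.0528 CPM in CCl4 liver 3 of the same group, which is 2 counts, with 0 in the others. A set with counts in only 1 library always meets this rule, so the rate of 1 in 20 does not apply to Epgn. Hbegf stood at 2.11 CPM in CCl4 liver 4 of the knockout with WT HMGB1, the highest of a group otherwise at 1.89 to 1.91.

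Response differences to CCl4 between the knockout with WT HMGB1 and the wild type passed the interaction test for Ereg (log2 -3.07), Btc (log2 -2.30) and Egfr (log2 2.03), with the values given above. For Btc the 4 wild-type CCl4 livers (5.19 to 10.2 CPM) and those of the knockout (4.73 to 6.85 CPM) overlapped, and the MO livers did not (0.905 to 1.06 and 2.90 to 5.28 CPM).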

How the results depend on the processing

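Single-gene values called in any setting were followed through the alternatives, and none of them changed sign. Values called in no setting were not checked for this. Under settings other than leaving out a library, 226 of the followed values stayed on their side of the threshold. A further 15 passed it newly and 10 no longer passed. With 1 library left out these numbers were 297, 14 and 42. The number of called members in resolving against fibrotic BSA livers was 2, but 1 without a filter on low counts and 0 in a fit of the compared groups only. For CCl4 against MO in the knockout with WT HMGB1 it was 2, but 4 with DESeq2, 4 with the replicate block and 1 with all genes kept; with Δ[O] HMGB1 it was 1, but 2 with DESeq2, 2 with the replicate block and 0 in a fit of the compared groups only. DESeq2 called 1 member instead of 0 between Δ[O] and WT HMGB1 with MO and in their CCl4 responses, and 2 instead of 1 between the knockout with WT HMGB1 and the wild type with CCl4. The causes of these shifts were not tested. Leaving out 1 library gave 3 to 5 members for [O] HMGB1 in cells, 0 to 4 for resolving against fibrotic livers, 6 to 8 for CCl4 in the wild type, 0 to 2 for CCl4 in each knockout group, 2 to 3 for the knockout against the wild type with MO and for their responses, 0 to 1 for the same with CCl4, and 0 to 1 for Δ[O] against WT HMGB1 with MO and in response; the other 9 comparisons kept their number. Within a genotype the numbers do not pair MO with CCl4 livers, and the replicate block otherwise changed the count of members in the CCl4 response of the knockout with WT HMGB1 against the wild type (2 instead of 3) and, where numbers do not pair either, in resolving against fibrotic BSA livers (3 instead of 2). An alternative scaling moved the median of all genes by at most 0.0403 on the log2 scale. Alternatives chosen after seeing the data were the fits without the 3 fibrotic livers numbered 2 and a block among fibrotic livers only. With the planned replicate block over all fibrotic and resolving livers, Erbb3 passed in resolving against fibrotic BSA livers (log2 1.55, edgeR adjusted p = 0.0225). The numbers do not pair these 2 groups. Depth limits Areg and Ereg in wild-type MO livers, which rest on 4 and 3 counts.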

Other observations

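In resolving livers Egfr stood at 792, 668 and 705 CPM with BSA, 372, 713 and 630 with [SO3] HMGB1 and 682, 404 and 781 with the HMGB1 antibody. [SO3] liver 1 and antibody liver 2 lay well under all BSA livers. Erbb3 in the same order stood at 149, 164 and 183 CPM, 229, 145 and 151 CPM, and 185, 65.3 and 172 CPM, and antibody liver 2 was again low while [SO3] liver 1 was the highest of the 9. Areg was at 0.0915, 0.107 and 0 CPM with [SO3] HMGB1 and 0, 0.215 and 0 CPM with the antibody, so that 1 [SO3] liver and 2 antibody livers had no count.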
